A study of Mus musculus with 6 samples.

Results

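Aminoacyl-tRNA synthetases are the enzymes that attach each amino acid to its transfer RNA, and their transcripts were examined in mouse morulae after knockdown (KD) of *Yy1*, which encodes a zinc finger transcription factor. The genes were chosen by symbol alone: a letter of the amino acid code followed by "ars", with or without a final 1 or 2, together with *Farsa*, *Farsb*, *Eprs*, *Aimp1* and *Aimp2*. This gave 39 of the 55364 genes listed. They were split into 17 mitochondrial genes, whose symbols end in 2, and 22 cytosolic genes. *Aimp1* and *Aimp2* encode scaffold proteins that hold several synthetases together and are not synthetases themselves, so *Aimp2* was counted as cytosolic although its symbol ends in 2. The threonine enzyme gene *Tarsl2* lies outside the rule and was counted among the other genes of tRNA charging.

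Every codon that a ribosome reads must be matched by a tRNA carrying the right amino acid, and the synthetases set that match. Cytosolic enzymes charge the tRNAs used by cytosolic ribosomes, while a separate set of nuclear-encoded enzymes is imported into mitochondria and charges the tRNAs encoded by the mitochondrial genome. Glycine and lysine are exceptions, because the single genes *Gars* and *Kars* supply both compartments, and mitochondrial glutaminyl-tRNA is made by way of glutamyl-tRNA. The enzymes fall into class I and class II by the fold of their catalytic domain, and several cytosolic enzymes are held with the Aimp proteins in a multi-synthetase complex.

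The embryos came from in vitro fertilization of BDF1 oocytes with BDF1 sperm. Zygotes received either a control siRNA (Control KD) or an siRNA against *Yy1* (Yy1 KD) by injection into the cytoplasm and developed in KSOM medium, and morulae were collected 64 h after insemination. Each group had 3 libraries, and each library was made from 10 pooled morulae with a kit that amplifies cDNA from very little RNA. The siRNA acts on RNA and leaves the *Yy1* gene in place. The labels do not say that the 3 libraries of a group came from separate fertilizations, so p-values measure the spread between these pools.

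The targeted transcript, *Yy1*, measured 96.0, 100.2 and 89.8 TPM after the control siRNA and 8.73, 8.90 and 8.32 TPM after the *Yy1* siRNA, or 9.07% of control. TPM divides the read pairs of a gene by its exon length and scales each library to the same sum, so that levels can be compared between genes. Between 11793509 and 24417789 read pairs on genes were recovered per library, with no separation of the groups by depth. All 11 morula markers examined passed the filter on low values. Of these, limma called *Tfap2c* lower (log2 fold change −0.54, SE 0.08, adjusted p = 0.0174), limma-voom also *Cdh1*, and *Sox2* was at 51.0% and *Cdh1* at 57.4% of control without a call by limma. Whether these differences have a part in those of the synthetase genes was not tested. Of 10 cumulus and granulosa markers, cells that can adhere to embryos, 5 were at 0 in every library, and their summed level was 1.48 to 3.39 TPM in Control KD against 1.70 to 3.36 TPM in Yy1 KD. In such bulk pools, fewer cells of a type and less RNA per cell cannot be told apart.

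All 39 genes reached 1 TPM in 3 or more of the 6 libraries, the filter on low values, and were tested. *Lars2* passed this filter through its Control KD libraries alone, since all its Yy1 KD values were under 1 TPM. Without the filter *Lars2* was not called (limma adjusted p = 0.0964). In Yy1 KD morulae, 3 mitochondrial synthetase genes were lower, *Rars2*, *Aars2* and *Lars2*, and 2 cytosolic genes were higher, *Lars* and the scaffold gene *Aimp2*. The mean level of *Lars2*, the mitochondrial leucine enzyme, was 8.81% of control, that of *Aars2*, the alanine enzyme, was 49.5%, and that of *Rars2*, the arginine enzyme, was 59.5%. The mean level of *Aimp2* was 1.61-fold and that of the cytosolic leucine enzyme gene *Lars* 1.33-fold of control. These calls come from limma on log2(TPM + 1) at a Benjamini-Hochberg adjusted p under 0.05 over 17353 genes. By the same rule 4.2% of all genes tested were lower and 1.92% higher, against 3 and 2 of the 39 members. The limma adjusted p of the called members ran from 0.0237 for *Rars2* to 0.0499 for *Lars2*. Of the 6 fits that left out a library, 5 called none of the 39 genes. The fit without Control KD replicate 2 called *Aimp2* alone. Such fits have fewer residual degrees of freedom, and over all genes they called 75 to 418, beside 1061 with all 6 libraries.

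YY1 binds a short motif, searched here as GCCATNTT on either strand (AANATGGC on the other), where N is any base. Promoter sequences, from 250 bases before to 50 after each start, were taken from the RefSeq table of build GRCm38.p6, which held 29 of the 39 members. The motif was found in 5 of these 29 (17.2%), *Aars2*, *Lars2*, *Wars2*, *Yars2* and *Farsa*, against 1881 of 27025 genes (6.96%) in the whole table. The windows below run from 40 bases before the annotated start to 30 bases into the transcript, all on the + strand, with the motif in capitals. They show *Aars2* and *Lars2*, which were lower and hold the motif, *Wars2* and *Yars2*, which hold it and were not called, and *Rars2*, which was lower and has no match. The last 3 were picked after their values had been seen. The called gene *Aimp2*, which was higher, also has no match and is not shown.

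*Aars2* (chr17:45506801-45506870): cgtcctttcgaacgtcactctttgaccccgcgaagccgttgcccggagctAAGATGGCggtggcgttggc
*Lars2* (chr9:123366887-123366956): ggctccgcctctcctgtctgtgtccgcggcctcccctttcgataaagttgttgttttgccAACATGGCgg
*Wars2* (chr3:99141050-99141119): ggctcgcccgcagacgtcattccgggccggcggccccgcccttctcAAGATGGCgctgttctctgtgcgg
*Yars2* (chr16:16302925-16302994): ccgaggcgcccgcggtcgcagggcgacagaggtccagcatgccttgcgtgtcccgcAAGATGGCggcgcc
*Rars2* (chr4:34614917-34614986): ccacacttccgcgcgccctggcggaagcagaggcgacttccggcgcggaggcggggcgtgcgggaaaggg

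The motif lay just inside the transcript in all 4 mitochondrial genes that hold it. Counting the first transcribed base as 1, it covered bases 11 to 18 of *Aars2*, or 20 to 27 from another annotated start of this gene. In the others it covered bases 21 to 28 of *Lars2*, 7 to 14 of *Wars2* and 17 to 24 of *Yars2*. In *Aars2*, *Wars2* and *Yars2* it covered the annotated start codon, since AANATGGC itself contains ATG, and in *Lars2* it did not. *Farsa*, which encodes the catalytic subunit of the cytosolic phenylalanine enzyme, held 2 matches upstream of its start, at 94 to 87 and 49 to 42 bases before it. These are matches of letters, and binding of YY1 was not measured here.

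Among the mitochondrial genes, *Rars2* (chr4:34614957-34660167, + strand) was at 17.3, 16.9 and 17.5 TPM in Control KD and, in the same unit, at 10.5, 9.32 and 10.9 in Yy1 KD. Every Yy1 KD library was below every Control KD library, and the 3 control values lay close together. The log2 fold change was −0.70 (SE 0.11, limma adjusted p = 0.0237). *Rars2* charges mitochondrial tRNA with arginine, and its loss in humans is known as a cause of pontocerebellar hypoplasia. Among the 8 alternatives that kept every library, it was called in 7, more than any other member.

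*Aars2* (chr17:45506841-45520843, + strand), which charges mitochondrial tRNA with alanine, was at 8.53, 8.19 and 7.82 TPM in Control KD and at 3.25, 4.24 and 4.66 TPM in Yy1 KD. The groups were far apart relative to their spread, with means of 8.18 ± 0.358 and 4.05 ± 0.722 (SD, n = 3). The log2 fold change was −0.87 (SE 0.17, limma adjusted p = 0.0358). Between 110 and 403 read pairs per library lay behind these values.

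*Lars2* (chr9:123366927-123462666, + strand), which charges mitochondrial tRNA with leucine, was the lowest of all 39 members in the mean of all 6 libraries. In Control KD alone the mean of *Nars2* was lower, at 1.63 TPM against 1.69 TPM for *Lars2*. By library, *Lars2* was at 1.46, 1.35 and 2.26 TPM in Control KD and at 0.361, 0.0492 and 0.0364 TPM in Yy1 KD. These values rest on 84, 154 and 187 recovered read pairs in Control KD and on 31, 3 and 2 in Yy1 KD, so the transcript was near the limit of detection in Yy1 KD replicates 2 and 3 and several times higher in replicate 1. Without replicate 1 the Yy1 KD mean was 2.53% of control. On the log2(TPM + 1) scale, which understates changes of low genes, the log2 fold change was −1.22 (SE 0.27, limma adjusted p = 0.0499). With a pseudocount of 0.1 it was −3.05 and not called (adjusted p = 0.0949), and limma-voom on recovered read pairs gave −3.85 and called it (adjusted p = 0.00501). Over its 13 alternatives the adjusted p ran from 0.00501 to 0.160.

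**Figure D1:**
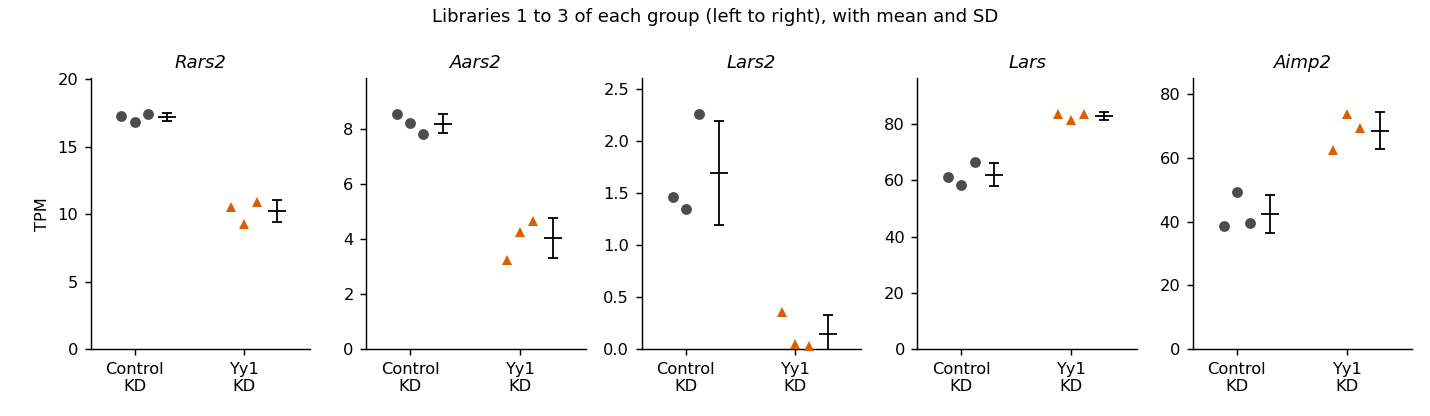
TPM of the 5 called genes in each library (points), with the mean and SD of each group of 3 libraries beside them; each panel has its own linear axis from 0, where the lower error bar of *Lars2* in Yy1 KD is cut. The Yy1 KD points lie below all Control KD points for *Rars2*, *Aars2* and *Lars2* and above them for *Lars* and *Aimp2*.

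The other 14 mitochondrial genes were not called, and their log2 fold changes ran from −0.45 to 0.27 with 7 below and 7 above 0. The lowest of them was that of *Sars2*, the serine enzyme, which was at 13.5, 14.9 and 16.2 TPM in Control KD against 11.1, 9.22 and 11.5 TPM in Yy1 KD (log2 fold change −0.45, SE 0.14, limma adjusted p = 0.107). It was the only uncalled mitochondrial gene whose groups did not overlap. The highest was that of *Fars2*, the phenylalanine enzyme, at 1.55, 2.22 and 1.87 TPM against 3.16, 1.49 and 3.02 TPM (log2 fold change 0.27, SE 0.27, limma adjusted p = 0.592). *Hars2*, the histidine enzyme, had the highest level of the mitochondrial genes and was nearly the same in both groups, 23.9 ± 1.18 TPM in Control KD against 25.2 ± 0.295 TPM in Yy1 KD (SD, n = 3). Its 95% interval for the log2 fold change ran from −0.14 to 0.28.

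Of the cytosolic genes, *Aimp2* (chr5:143902704-143909847, − strand) had the largest difference. It was at 38.5, 49.2 and 39.4 TPM in Control KD and at 62.3, 73.7 and 69.2 TPM in Yy1 KD, with no overlap of the groups (log2 fold change 0.68, SE 0.12, limma adjusted p = 0.0297). *Aimp2* shares 487 exonic bases with the 3′ neighbour *Eif2ak1*, the heme-regulated kinase of the initiation factor eIF2, which lies on the other strand. Since strand was ignored in counting, reads there cannot be assigned to either gene by the values used here. *Eif2ak1* was at 18.6 ± 1.03 TPM in Control KD against 22.7 ± 0.771 TPM in Yy1 KD (SD, n = 3) and was not called (log2 fold change 0.27, SE 0.10, limma adjusted p = 0.146).

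*Lars* (chr18:42202298-42262194, − strand), the cytosolic leucine enzyme and also a leucine sensor of the mTORC1 pathway, was at 60.9, 58.4 and 66.6 TPM in Control KD and at 83.5, 81.1 and 83.3 TPM in Yy1 KD. The Yy1 KD values were tightly grouped above the control values (log2 fold change 0.41, SE 0.08, limma adjusted p = 0.0339). *Lars* and *Aimp2* both belong to the multi-synthetase complex, of whose genes 10 are among the 39. Of these, limma called 2 higher and 0 lower, against 1.92% and 4.2% of all genes tested. The 10 genes had a median log2 fold change of 0.07. A further gene of the complex, *Eef1e1* (AIMP3), lies outside the symbol rule. It was at 62.5, 66.7 and 75.3 TPM in Control KD against 59.5, 49.5 and 53.2 TPM in Yy1 KD, without overlap and with a difference opposite in sign to those of *Lars* and *Aimp2* (log2 fold change −0.33, SE 0.11, limma adjusted p = 0.123). The 12 cytosolic genes outside the complex had no call in limma and a median of 0.08. At an unadjusted p under 0.05, 4 of them were higher and 0 lower, against 9.35% and 14.4% of all genes tested. *Aimp1*, the other scaffold gene, was at 48.2 ± 1.67 TPM in Control KD against 48.6 ± 3.87 TPM in Yy1 KD (SD, n = 3).

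Just outside the threshold lay *Nars*, the asparagine enzyme, and *Tars*, the threonine enzyme. *Nars* was at 94.7, 96.6 and 99.1 TPM in Control KD and at 128.2, 119.7 and 115.3 TPM in Yy1 KD (log2 fold change 0.32, SE 0.07, limma adjusted p = 0.0504). *Tars* was at 84.0, 86.6 and 79.0 TPM against 114.9, 126.6 and 100.2 TPM (log2 fold change 0.44, SE 0.10, limma adjusted p = 0.0528). Neither gene's groups overlapped, and limma called *Nars* in 4 and *Tars* in 3 of the 8 alternatives that kept every library. Just inside it lay *Lars2* (adjusted p = 0.0499).

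The other cytosolic genes were not called. *Farsb*, the other subunit of the phenylalanine enzyme, had the lowest log2 fold change (−0.26, SE 0.13, limma adjusted p = 0.267), and its values of 78.8, 74.4 and 65.8 TPM in Control KD overlapped those of 60.5, 52.2 and 70.0 TPM in Yy1 KD. *Farsa*, with which it forms a tetramer, had a similar value (−0.23, SE 0.10, limma adjusted p = 0.237). *Gars*, the glycine enzyme and the highest member in level, was at 177.9, 198.9 and 191.4 TPM against 222, 214.8 and 217.7 TPM (log2 fold change 0.20, SE 0.07, limma adjusted p = 0.133). *Qars* was at 139.2 ± 2.14 TPM in Control KD against 138.0 ± 1.30 TPM in Yy1 KD (SD, n = 3), with a 95% interval for the log2 fold change from −0.16 to 0.13. *Wars*, the tryptophan enzyme, is 39882 bases from *Yy1* on chromosome 12 and was at 43.0 ± 8.36 TPM and 56.0 ± 4.98 TPM (log2 fold change 0.39, SE 0.15, limma adjusted p = 0.176).

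**Figure D2:**
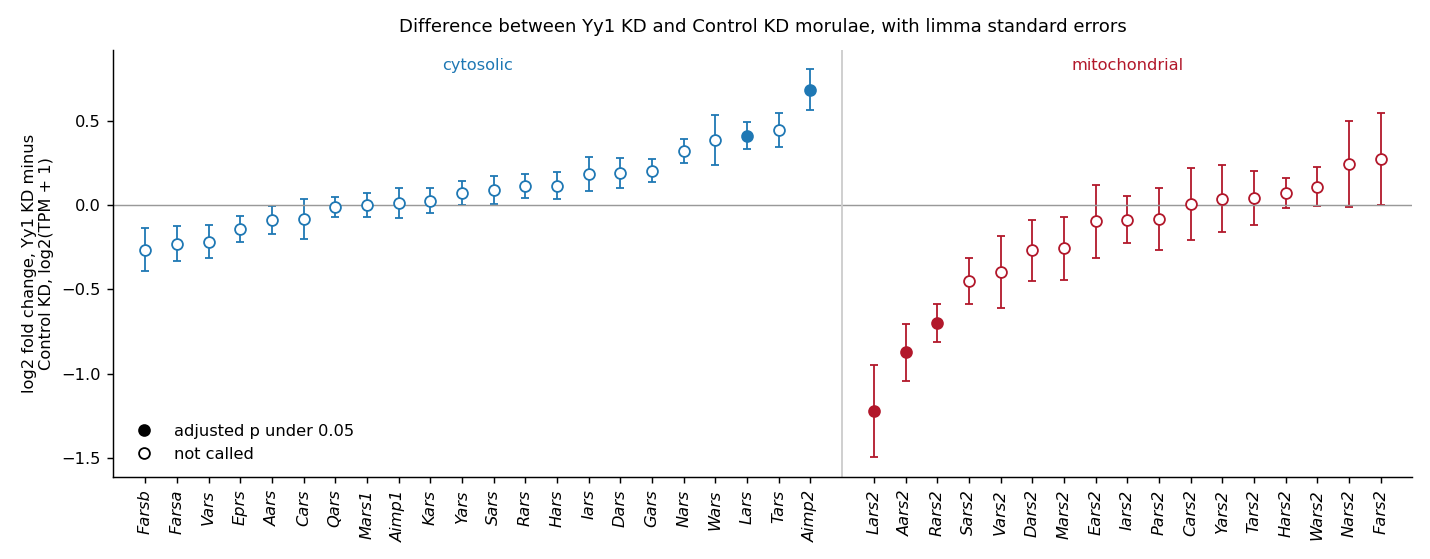
Log2 fold change of each of the 39 genes, Yy1 KD minus Control KD on log2(TPM + 1), with the limma standard error; filled points are called at an adjusted p under 0.05. Cytosolic genes run from −0.26 (*Farsb*) to 0.68 (*Aimp2*) and mitochondrial genes from −1.22 (*Lars2*) to 0.27 (*Fars2*).

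By compartment, limma called 0 of 22 cytosolic genes lower and 2 higher, and 3 of 17 mitochondrial genes lower and 0 higher. Over all genes tested, the shares by this rule were 4.2% lower and 1.92% higher. At an unadjusted p under 0.05, 6 cytosolic genes were higher and 0 lower and 4 mitochondrial genes lower and 0 higher, where 14.4% of all genes tested were lower and 9.35% higher. In limma-voom 4 cytosolic genes were higher and 0 lower, of 20 tested, and 3 mitochondrial genes lower and 0 higher, and this test called 7.59% of its 16931 genes lower and 4.73% higher. The median log2 fold change was 0.08 for the cytosolic and −0.09 for the mitochondrial genes, beside −0.02 for all genes tested. The 3 Yy1 KD values lay all above the control values in 9 cytosolic and 0 mitochondrial genes and all below them in 3 cytosolic and 4 mitochondrial genes. Of all genes tested, 12.9% were separated upward and 17.2% downward. The mitochondrial genes are lower in level and were measured less precisely, with a median SE of 0.18 against 0.08. Whether the compartments differed in their response was not tested. Under quantile normalization the medians were 0.15 and −0.01, and the calls over all genes changed from 728 lower and 333 higher to 548 and 388.

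By class, the 18 class I enzymes held 2 lower genes, *Rars2* and *Lars2*, and 1 higher gene, *Lars*. The 18 class II enzymes held 1 lower gene, *Aars2*, and 0 higher. Of all genes tested, 4.2% were lower and 1.92% higher. The medians were −0.01 for class I and 0.06 for class II. *Eprs*, which carries the glutamate enzyme of class I and the proline enzyme of class II in a single protein, was left out of this count with the scaffold genes. It was at 80.5, 71.7 and 79.3 TPM in Control KD against 69.6, 68.9 and 70.9 TPM in Yy1 KD (log2 fold change −0.14, SE 0.08, limma adjusted p = 0.318).

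In level, the cytosolic genes ranged from 16.04 TPM for *Cars*, the cysteine enzyme, to 203.8 TPM for *Gars* in the mean of all 6 libraries, with a median of 72.6 TPM. The mitochondrial genes ranged from 0.919 TPM for *Lars2* to 24.5 TPM for *Hars2*, with a median of 8.54 TPM. Summed over the 22 genes, cytosolic transcripts were at 1759, 1806 and 1785 TPM in Control KD and at 1973, 1933 and 1903 TPM in Yy1 KD. The mitochondrial sum was at 163, 169.9 and 174 TPM in Control KD and at 153, 139.6 and 157 TPM in Yy1 KD. Neither sum overlapped between the groups, and the ratio of the cytosolic to the mitochondrial sum was 10.6 ± 0.275 in Control KD and 12.9 ± 0.877 in Yy1 KD (SD, n = 3). No test was run on these sums.

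**Figure D3:**
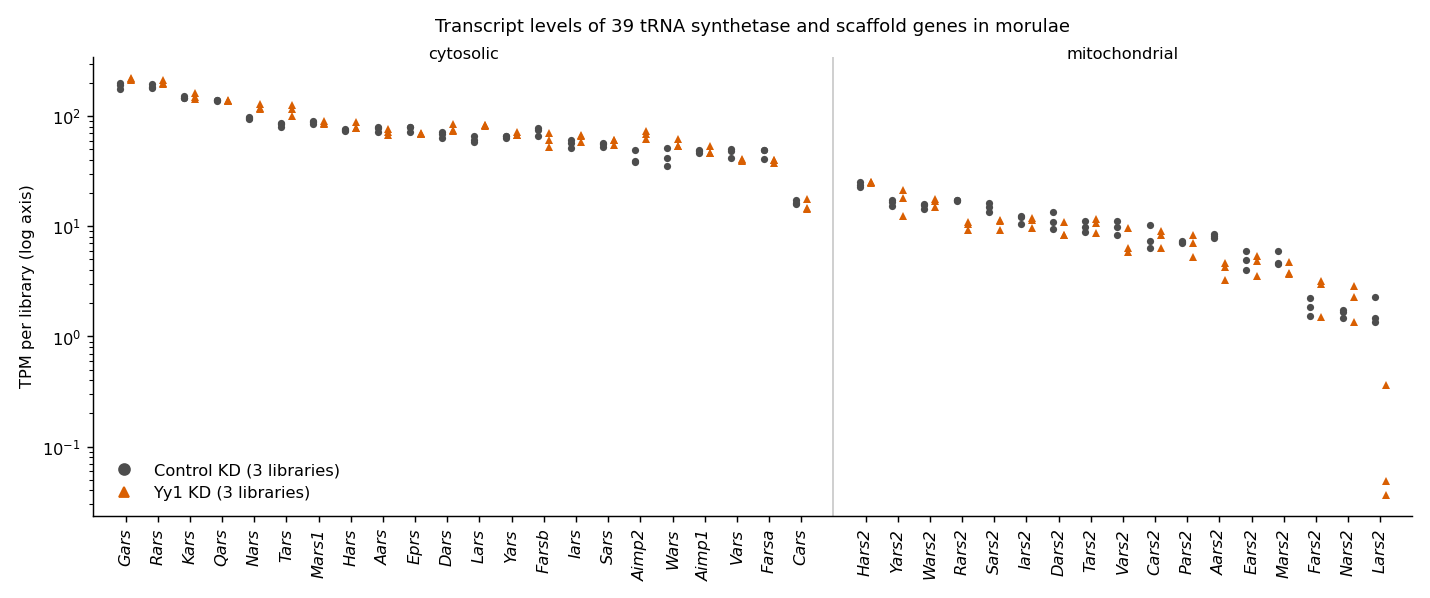
TPM of each of the 39 genes in the 3 Control KD (circles) and 3 Yy1 KD (triangles) libraries on a log axis, sorted by mean level within cytosolic and mitochondrial genes. Mitochondrial genes sit mostly below the cytosolic ones, and the Yy1 KD values of *Lars2*, between 0.0364 and 0.361 TPM, are the lowest on the plot.

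Each amino acid with separate enzymes gives a natural pair, and 18 pairs over 17 amino acids could be formed. In all 18 the cytosolic gene was above the mitochondrial gene in all 6 libraries. In Control KD the ratio of mean TPM ran from 2.08-fold for *Cars* over *Cars2* to 59.4-fold for *Nars* over *Nars2*. The log2 difference within the pair was larger in Yy1 KD than in Control KD in 13 pairs. It was separated between the groups in 8 pairs, upward in 7 and downward only in *Farsb* and *Fars2*. Of single genes tested, 12.9% were separated upward and 17.2% downward, and no such share was computed for pairs. *Eprs* and *Fars2* each enter more than 1 pair, so the pairs are not independent.

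Of the 3 pairs with a called member, leucine was the only amino acid for which both genes were called, in opposite directions. The level of *Lars* was 36.7-fold that of *Lars2* in Control KD and 555-fold in Yy1 KD. Without Yy1 KD replicate 1, where *Lars2* was highest, the latter ratio was 1921-fold, resting on 3 and 2 read pairs of *Lars2*. The log2(TPM + 1) difference moved from 4.56 ± 0.164 to 6.20 ± 0.211 (SD, n = 3). For arginine the ratio of *Rars* to *Rars2* went from 10.8-fold to 19.7-fold, with *Rars* itself at 186.7 ± 7.63 and 202.2 ± 9.48 TPM. For alanine the ratio of *Aars* to *Aars2* went from 9.36-fold to 17.8-fold, with *Aars* at 76.6 ± 4.06 and 71.9 ± 4.14 TPM. Two-sided exact permutation tests of the 3 changes each gave p = 0.1 (adjusted p = 0.1), the smallest that 3 against 3 libraries allow. The 3 pairs were chosen because they hold a gene called in these same libraries, and the groups of *Lars2*, *Rars2* and *Aars2* did not overlap. Separation of the pair differences was therefore likely from the choice alone, and these tests cannot decide whether the differences within the pairs changed.

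**Figure D4:**
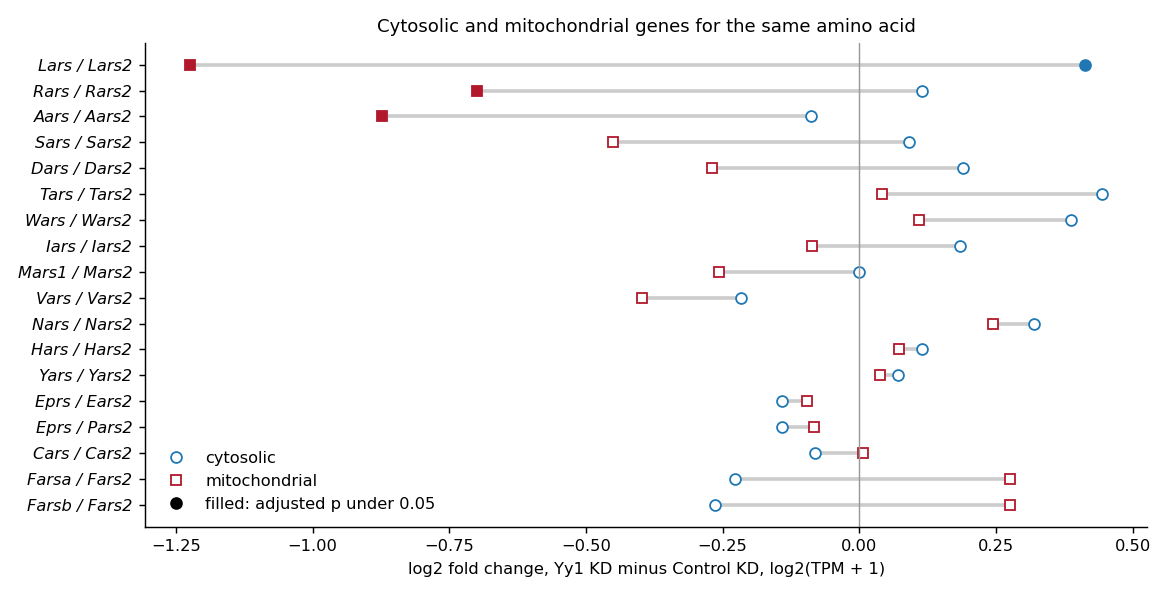
Log2 fold changes on log2(TPM + 1) of the cytosolic (circle) and mitochondrial (square) gene for the same amino acid, joined by a line and sorted by the difference; filled symbols are called at an adjusted p under 0.05. The leucine pair is widest, from −1.22 for *Lars2* to 0.41 for *Lars*, and *Fars2* stands to the right of both *Farsa* and *Farsb*.

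The members near other genes were set beside those neighbours, since a promoter can serve genes on both strands. A protein-coding gene on the other strand started within 1000 bases of 12 members, and 2 of these were *Hars* and *Hars2* beside each other. None of the other 10 neighbours was called by limma. At an unadjusted p under 0.05, 2 were lower and 1 higher, against 14.4% and 9.35% of all genes tested. In limma-voom 1 was lower (*Orc3*) and 1 higher (*S100pbp*, beside *Yars*), against 7.59% and 4.73% of its genes. *Rars2* starts 13 bases from *Orc3*, which encodes a subunit of the origin recognition complex. *Orc3* was at 18.8, 19.8 and 19.0 TPM in Control KD and at 13.0, 13.8 and 15.0 TPM in Yy1 KD, all below the control values (log2 fold change −0.43, SE 0.11, limma adjusted p = 0.0620). *Aimp2* starts 117 bases from the mismatch repair gene *Pms2*, whose groups overlapped (log2 fold change 0.20, SE 0.18, limma adjusted p = 0.554).

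Other genes of tRNA charging and use were examined as lists. The 15 charging partners export, proofread, extend or otherwise act on tRNAs, belong to the multi-synthetase complex or resemble synthetases. Of these, 0 were called by limma, with a median log2 fold change of −0.25. At an unadjusted p under 0.05, 7 of the 15 were lower and 2 higher, beside the 14.4% and 9.35% of all genes. Of the 15, limma-voom, with 7.59% of all genes lower, called 2 lower, *Tarsl2* and *Trnt1*, which adds the CCA end to tRNAs. Of 9 elongation factors, 2 were higher and 0 lower by limma, against 1.92% and 4.2% of all genes, with a median of 0.17. The 2 were *Eef2*, which moves the ribosome along the mRNA (log2 fold change 0.44, SE 0.08, limma adjusted p = 0.0301), and *Eef1d*, a part of the exchange factor that reloads eEF1A (0.44, SE 0.07, limma adjusted p = 0.0211). In limma-voom 3 were higher, with *Eef1a1* added, and 1 was lower, against 4.73% and 7.59% of its genes. The lower one was the mitochondrial factor gene *Gfm2*. Its limma log2 fold change of −0.55 (SE 0.16, adjusted p = 0.104) was the farthest from 0 in the list.

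Of 11 genes of mitochondrial tRNA maturation, 2 were lower and 2 higher by limma, against 4.2% and 1.92% of all genes tested. In limma-voom, with 7.59% of its genes lower, *Trit1* was added to the lower ones. *Mto1*, which modifies the wobble base of mitochondrial tRNAs, was at 7.86, 8.28 and 9.96 TPM in Control KD and at 2.39, 3.08 and 2.18 TPM in Yy1 KD (log2 fold change −1.45, SE 0.18, limma adjusted p = 0.0127). *Hsd17b10*, a subunit of mitochondrial RNase P, was at 8.78, 9.40 and 12.6 TPM against 3.68, 3.36 and 2.64 TPM (−1.41, SE 0.20, limma adjusted p = 0.0154). Both were far below control in every Yy1 KD library. *Trmt10c*, another subunit of the same enzyme, was higher (0.44, SE 0.09, limma adjusted p = 0.0447), and *Prorp*, its nuclease, had a log2 fold change of −0.04. *Elac2*, which cuts the 3′ end of tRNA precursors, was higher, from 59.8, 63.5 and 59.2 TPM to 87.3, 81.9 and 86.8 TPM (0.48, SE 0.07, limma adjusted p = 0.0194).

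Several cytosolic synthetase genes are known targets of ATF4 in the amino acid response, so genes of that response were read alongside them. The 22 entries tested include separate, overlapping entries of *Ddit3*. Of the 22, 0 were called by limma. At an unadjusted p under 0.05, 1 was lower and 3 were higher, against 14.4% and 9.35% of all genes tested. In limma-voom 1 was called lower, *Eif4ebp1*, and 1 higher, *Sesn2*, against 7.59% and 4.73% of its genes. Their median log2 fold change was −0.05, with 10 above and 12 below 0, and that of *Atf4* itself was −0.16 (SE 0.09, limma adjusted p = 0.356).

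**Figure D5:**
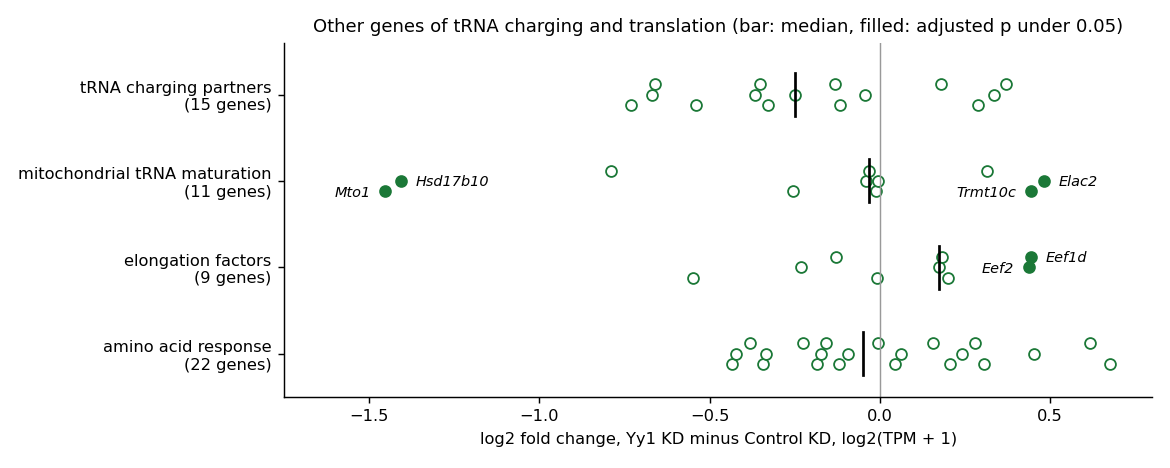
Log2 fold changes on log2(TPM + 1) of the genes tested in 4 lists related to tRNA charging and translation; bars are list medians and filled, named points are called at an adjusted p under 0.05. The medians run from −0.25 for the charging partners to 0.17 for the elongation factors, and *Mto1* and *Hsd17b10* lie farthest to the left.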

How the data were processed

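RNA-seq values of 3 Control KD and 3 Yy1 KD libraries were used, with groups and replicate numbers taken from the labels. The authors trimmed reads with Trim Galore (0.6.7), aligned them to mm10 with HISAT2 (2.2.1), removed ribosomal RNA reads with bedtools and assigned read pairs to GENCODE vM25 genes with featureCounts (2.0.1), ignoring strand and dividing pairs among overlapping genes. The deposited values were TPM per gene and library, which the authors computed from these assignments. The authors tested counts with edgeR. TPM is not suited to a count test, so limma (3.58.1, R 4.3.3) was fitted here to log2(TPM + 1) with a variance trend and no replicate block. Genes reaching 1 TPM in 3 or more libraries entered, and p-values (two-sided) received the Benjamini-Hochberg adjustment. The fit was tested on simulated data. Standard errors are those of limma.

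The members and gene lists were chosen with earlier results of these data known. Called members, the members with the largest rise and fall and the highest and lowest level of each compartment, pairs with a called member, called genes of the other lists and neighbours of called members were named in full. Other members, *Atf4*, *Prorp*, *Eef1e1*, *Sox2* and genes called by limma-voom alone were named after their values had been seen. Coordinates, overlaps and exon lengths came from GENCODE vM21 (GRCm38), in which 54312 of 55364 gene versions (98.1%) were present. Read pairs per gene were recovered as TPM times exon length, except for *Aimp1* and *Yars*, whose versions differ. Same-numbered libraries did not deviate together (correlations of −0.00388, 0.0319 and 0.0747).

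Alternatives were a pseudocount of 0.1, no filter, quantile normalization, scaling by median ratios, genes with a mean of 5 TPM or more, a fit without the variance trend, a replicate block, limma-voom on recovered pairs and leaving out each library. Python 3.11.15, pandas 2.3.3, scipy 1.17.1 and matplotlib 3.10.9 were also used.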

Additional observations from a re-analysis of the deposited data

How the results depend on the processing

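No member changed direction among the called genes, and the limits lie in how many were called. Without the filter on low values 1 member was lower and 0 higher, and 347 genes were called in all, beside 1061 as reported. Without a variance trend 0 members were higher and 514 genes were called. With the replicate number as a block 0 members were lower and 1 higher (*Aimp2*), and 287 genes were called. The numbers are shared without a shared animal or day in the labels, and the same-numbered libraries did not correlate. With a mean TPM of at least 5, with quantile normalization and with limma-voom 4 members were higher, the additional ones being *Nars* and *Tars*, and limma-voom called 2086 genes. Under quantile normalization the cytosolic median moved to 0.15. Leaving out a library gave 0 to 0 members lower, 0 to 1 higher and 75 to 418 genes called, and such fits have fewer residual degrees of freedom. Over the 3 genes called lower, the adjusted p in these fits ran from 0.0539 to 0.160. Of the values of 11 members followed under the alternatives, 104 kept direction and side of the threshold, most of them from uncalled members that stayed uncalled. The call was gained in 7 and lost in 42, and all 42 came from the 5 called genes. *Rars2* and *Aimp2* were each called in 7 of 14 alternatives, *Aars2* in 6 of 14, *Lars* in 5 of 14 and *Lars2* in 2 of 13. Depth limits *Lars2* most.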
